A study of Mus musculus with 2 samples.

Results

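The genes examined here encode the Wnt ligands, the proteins that export and receive them, and the proteins that carry their signal inside the cell. Members were taken by name from the platform annotation, as every gene with its own probe set whose symbol is Wnt or Fzd followed by digits, plus a fixed set of co-receptors, R-spondins, LGR receptors, cytoplasmic transducers and TCF/LEF factors. Of 18193 genes with a probe set on the array, 57 were members, read by 128 probe sets. One of them, Fzd10os, is a transcript from the strand opposite Fzd10 that the naming rule also takes; it is counted as a member and not as a receptor. Tcf7 is named in the rule and was not analysed here, because no probe set was annotated to it alone.

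Levels were measured on 2 Affymetrix arrays, 1 for cells from wildtype mice and 1 for cells from Cpdm mice. Cpdm stands for chronic proliferative dermatitis, a spontaneous mutation that removes functional SHARPIN, a component of the complex that builds linear ubiquitin chains. The Sharpin transcript itself read 162 in Cpdm and 197 in wildtype, a log2 ratio of -0.28, and since the mutation need not remove the transcript this does not check the labels. Both groups were unsorted bone marrow cells grown for 10 days with ascorbic acid at 50 µg/ml and β-glycerophosphate at 10 mM, supplements that promote osteoblast differentiation and mineralisation, and received no other treatment. The sources used here do not give the strain, age or number of mice behind each culture. With 1 array for each genotype there was no replicate error, so the differences below describe 2 arrays and carry no p-value.

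Wnt proteins are secreted lipid-modified ligands. In the canonical branch a Wnt binds a Frizzled receptor together with the co-receptor LRP5 or LRP6, Dishevelled is recruited, the complex of Axin, APC and GSK3B stops marking β-catenin for degradation, and β-catenin enters the nucleus to act with TCF/LEF factors. R-spondins, bound by LGR receptors, keep Frizzled and LRP receptors at the surface. In bone, this branch promotes osteoblast formation from mesenchymal precursors, and other Wnts act through ROR and RYK receptors on cell polarity and calcium signals.

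The values are linear MAS5 signals, in arbitrary units. A floor was set at the 40th percentile of each array, a signal of 18.5 in Cpdm and 18.7 in wildtype, and a gene was called measured if its representative probe set, the one with the highest mean log2 signal, reached the floor in at least 1 array. Of the 57 members 48 were measured, 38 of them above the floor in both arrays, 4 in Cpdm only and 6 in wildtype only. The 9 others lay below the floor in both: Wnt1, Wnt2, Wnt3, Wnt3a, Wnt8a, Wnt16, Lrp5, Rspo1 and Dvl3. Signals below the floor were set to it, so a fold with 1 array below it is written as "at least".

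The median signal over all probe sets was 27.6 in Cpdm and 28.1 in wildtype. The 18 hybridisation spike-in probe sets, added equally to both arrays, had a mean log2 ratio of Cpdm over wildtype of 0.01 ± 0.11 (SD, n = 18 probe sets), and the spread between probe sets of the same gene, taken over 5250 genes, corresponds to a robust SD of 0.32 in log2 ratio. Control probe sets for 18S ribosomal RNA had log2 ratios between -3.75 and -2.37. The 3′ over 5′ ratio of the actin control was 1.92 in Cpdm and 1.61 in wildtype. Xist had a log2 ratio of 2.17 and the Y-linked gene Uty one of -1.92, so sex-linked transcripts differed along with genotype. The part of these differences in the results below was not tested.

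As a group the members did not shift in one direction. Of the 48 measured members 24 had a log2 ratio above 0 and 24 below, and their median log2 ratio was -0.01, beside a median of 0.03 over all 14055 measured genes. At least 2-fold higher in Cpdm were 3 members, Lrp6, Nkd2 and Wnt11, which is 6.25% of those measured, against 5.84% of all measured genes. At least 2-fold lower were 4 members, Wnt4, Fzd5, Lgr4 and Fzd8, or 8.33%, against 5.98% of all measured genes. These shares are near the background, and the description that follows concerns which members differed. The 4 lower members are a ligand, 2 Frizzled receptors and an R-spondin receptor, and the 3 higher ones a ligand, a co-receptor and a Dishevelled-binding inhibitor. The cultures are mixtures, and in such bulk samples fewer cells of a type and less RNA per cell cannot be told apart.

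**Figure D1:**
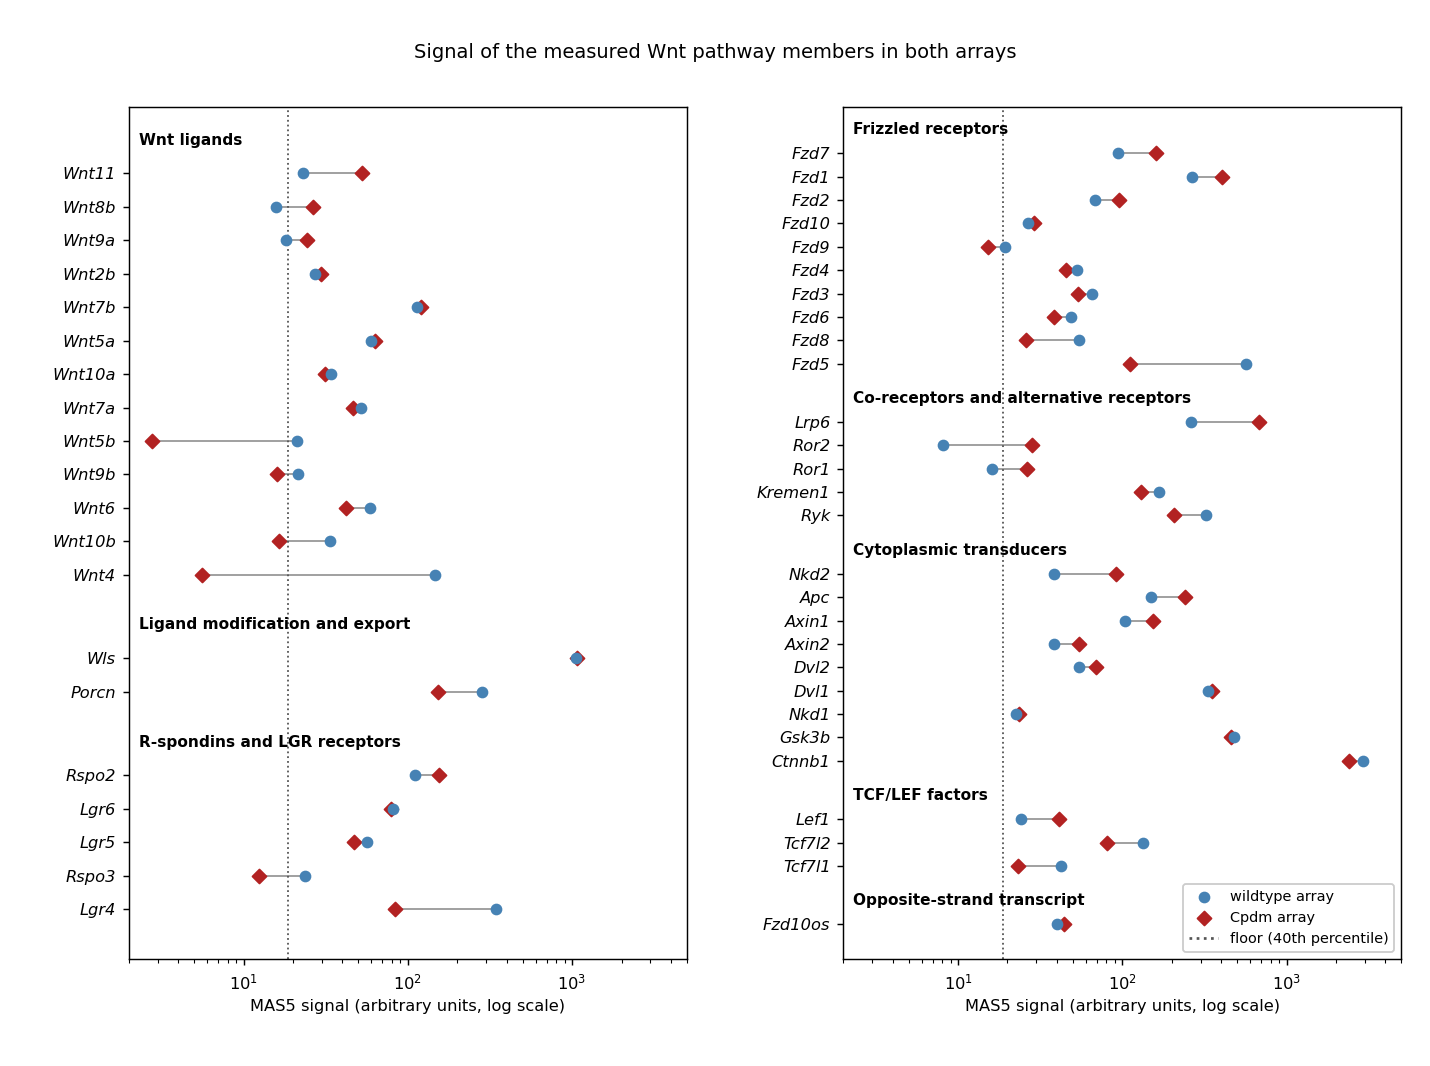
MAS5 signal (log scale, arbitrary units) of the 48 measured members, grouped by role, with the wildtype array as circles, the Cpdm array as diamonds and the floor as a dotted line at the wildtype value of 18.7. Points are signals as deposited, with no floor applied, unlike the folds in the text. Most pairs of points lie close together, while Wnt4, Wnt5b, Fzd5 and Lgr4 lie far to the left in Cpdm and Lrp6 and Ror2 to the right. The Cpdm points of Wnt4 and Wnt5b and the wildtype point of Ror2 are below the floor.

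Among the ligands Wnt4 stood out. Wnt4, a ligand with roles in kidney, gonad and bone formation, had a signal of 5.59 in Cpdm and 146 in wildtype by its representative probe set, and of 10.6 and 83.6 by its other one. Both probe sets were thus below the floor in Cpdm and well above it in wildtype, and the gene was at least 7.92-fold lower by the first and at least 4.52-fold lower by the second. Wnt11, a ligand known mainly for acting through the polarity branch, went the other way, with a signal of 52.3 in Cpdm and 22.9 in wildtype, or 2.28-fold higher. It has a single probe set, and its wildtype signal lay near the floor.

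None of the remaining 11 measured ligands reached 2-fold by the representative probe set, and for 5 of them 1 array was below the floor, so that the value is a lower bound. Wnt10b, a ligand that favours osteoblasts over adipocytes, read 16.5 in Cpdm and 33.6 in wildtype, at least 1.82-fold lower, and passed 2-fold with a lower floor or none, at a log2 ratio of -1.03. Wnt5a, the prototype ligand of the ROR receptors, was near equal at 62.9 and 60.1 by its representative probe set. A further Wnt5a probe set read 18.4 in Cpdm and 29.6 in wildtype, and its other 2 lay just above the floor in Cpdm only. Wnt7b, a ligand linked to osteoblast differentiation, read 120.3 and 113, and 26.8 and 12.4 by a second probe set that was above the floor in Cpdm only. By their representative probe sets Wnt5a and Wnt7b were thus near equal in both arrays, and Wnt10b was measured in wildtype only.

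Wnt6 had a log2 ratio of -0.48 by its representative probe set, with signals of 42.0 in Cpdm and 58.5 in wildtype. Its other probe set, just above the floor in Cpdm only, went the opposite way, at 19.9 against 10.8. Wnt7a, Wnt10a and Wnt2b, all above the floor in both arrays, had log2 ratios of -0.17, -0.13 and 0.11. Wnt9b and Wnt5b were above the floor in wildtype only, with signals there of 21.4 and 21.2. Wnt9a and Wnt8b were above it in Cpdm only, with signals of 24.4 and 26.5. For these 4 genes the single signal above the floor was so close to it that the size of any difference could not be measured.

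Both proteins that ready Wnts for secretion were measured. Wls, the carrier that takes Wnts to the cell surface, had signals of 1077 in Cpdm and 1057 in wildtype, and 756 against 764 by a second probe set. Another Wls probe set had a log2 ratio of 0.43. Porcn, the acyltransferase that adds the lipid to Wnts, read 152 in Cpdm and 283 in wildtype, or 1.86-fold lower, by its only probe set. Wls was thus at the same level in both arrays by its representative probe set, and Porcn was lower in Cpdm by less than 2-fold.

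Of the 10 Frizzled genes, the seven-pass receptors of Wnts, all were measured. At least 2-fold lower were 2, or 20%, against 5.98% of all measured genes, a share that rests on Fzd5 and Fzd8 alone. None passed 2-fold on the higher side, and the median log2 ratio was -0.15. Fzd5 had the largest difference, with a signal of 111 in Cpdm and 569.7 in wildtype, or 5.13-fold lower. Its second probe set read 27.7 and 75.0, or 2.71-fold lower. Both Fzd5 probe sets were measured on each array and both passed 2-fold. Fzd8 read 26.0 in Cpdm and 54.6 in wildtype, 2.10-fold lower, and 18.0 against 28.7 by a probe set that was below the floor in Cpdm, which gives at least 1.56-fold. The Cpdm signals of Fzd8 lay at or near the floor, so the size of its difference is less certain than that of Fzd5.

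The related receptors Fzd1, Fzd2 and Fzd7 were higher in Cpdm by their representative probe sets, all by less than 2-fold. Fzd7 read 159.5 in Cpdm and 94.7 in wildtype, or 1.68-fold higher, and Fzd1 read 405 and 267, or 1.52-fold higher. Each had 1 probe set above the floor. Fzd2 was 1.40-fold higher by a probe set whose type can also bind related genes, but its other 2 had log2 ratios of -0.07 and -0.30, so its direction depended on the probe set.

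Fzd3, Fzd4 and Fzd6 were lower in Cpdm by less than 1.3-fold by their representative probe sets, with log2 ratios of -0.27, -0.24 and -0.34. The other Fzd3 probe sets that both arrays measured had log2 ratios of -0.84 and -0.43, in the same direction. A second Fzd4 probe set was at 0.02, and 2 further Fzd6 probe sets, each above the floor in 1 array, went opposite ways. Fzd10 read 29.2 in Cpdm and 26.8 in wildtype, and Fzd9 read 15.3 and 19.2, just above the floor in wildtype only. The opposite-strand transcript Fzd10os had signals of 44.4 and 40.1, and 17.3 against 23.0 by its other probe set.

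The co-receptors and alternative receptors differed in direction. Lrp6, the single-pass co-receptor of canonical Wnt signalling, had a signal of 675 in Cpdm and 262 in wildtype, or 2.58-fold higher. Its other probe set read 22.5 and 10.5, above the floor in Cpdm only, and gave at least 1.20-fold in the same direction. Lrp5, its close relative and a gene with a known role in bone mass, was below the floor in both arrays, so both co-receptors could not be compared. Kremen1, a receptor that removes LRP6 from the surface together with Dickkopf proteins, read 129.5 in Cpdm and 167 in wildtype, and its 3 probe sets disagreed in sign, with log2 ratios between -0.36 and 0.36.

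Receptors of the non-canonical branch were also split. Ryk, a Wnt receptor with an inactive kinase domain, read 206 in Cpdm and 324 in wildtype, or 1.57-fold lower, and 156 against 295 by a second probe set, or 1.89-fold lower. The receptor tyrosine kinase genes Ror1 and Ror2 reached the floor in the Cpdm array alone, where Ror1 read 26.5 (wildtype 16.03) and Ror2 28.1 (wildtype 8.07), which gives at least 1.41-fold and at least 1.50-fold higher. With a floor at the 20th percentile or none, the log2 ratio of Ror2 was 1.80, past 2-fold. Ryk was thus lower by both probe sets that each array measured, and the ROR signals were near the floor.

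In the R-spondin and LGR group, 5 of 6 genes were measured and 1 was at least 2-fold lower. This is 20% of those measured, against 5.98% of all measured genes, and rests on a single gene. Lgr4, an R-spondin receptor that is also expressed in bone cells, had a signal of 83.0 in Cpdm and 344 in wildtype, or 4.14-fold lower. It had 1 probe set above the floor. Lgr5, a stem cell marker of the gut that is itself a Wnt target, read 46.8 and 56.6. Lgr6 read 78.7 and 81.4 by its representative probe set and 60.4 and 66.6 by the other. Of the 3 LGR genes, only Lgr4 passed 2-fold.

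The ligands of these receptors gave smaller or unclear differences. Rspo2 read 155 in Cpdm and 111 in wildtype by its representative probe set, or 1.40-fold higher, and 53.3 against 64.1 by the other, in the opposite direction. Rspo3 was above the floor in wildtype only, at 12.5 against 23.6, at least 1.27-fold lower. Rspo1 was below the floor in both arrays.

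Inside the cell, 9 of the 10 transducer genes were measured and all 9 were above the floor in both arrays. Of these, 1 passed 2-fold on the higher side, or 11.1% against 5.84% of all measured genes, and none on the lower side. A log2 ratio above 0 was found for 7 of the 9, beside 7369 of all 14055 measured genes. The 9 had a median of 0.34, beside 0.03 over all measured genes. Nkd2, which encodes a Dishevelled-binding inhibitor of the pathway, had a signal of 91.8 in Cpdm and 38.5 in wildtype, or 2.38-fold higher. A second probe set read 48.9 and 20.4, or 2.40-fold higher. The other 2 Nkd2 probe sets were near the floor and went the opposite way, at 21.9 against 24.9 and 15.2 against 22.2. Its relative Nkd1 was near equal, at 23.6 and 22.6 by its representative probe set.

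The genes of the β-catenin destruction complex lay within 2-fold by their representative probe sets. Apc, the scaffold that binds β-catenin, read 242 in Cpdm and 149 in wildtype, or 1.63-fold higher, and 138 against 82.7 by a second probe set. Axin1, the other scaffold, read 154 and 104, or 1.48-fold higher, while its second probe set, at the floor, was near equal. Axin2, a scaffold gene that is a widely used target of β-catenin, read 54.2 in Cpdm and 38.1 in wildtype, or 1.42-fold higher, by the only probe set above the floor. Gsk3b, the kinase of the complex, had signals of 462 and 479, and its 6 probe sets ranged from -0.31 to 0.60 in log2 ratio.

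Ctnnb1, the gene of β-catenin, had probe sets that differed in size. All 3 were lower in Cpdm. The representative one read 2410.45 in Cpdm and 2913 in wildtype, a log2 ratio of -0.27. The second read 619 and 1076, at -0.80, and the third 110.1 and 374.5, at -1.77. The third alone passed 2-fold. The Dishevelled genes Dvl1 and Dvl2, adaptors just below the receptor, had log2 ratios of 0.09 and 0.34, with Dvl1 at 0.35 by its second probe set.

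The TCF/LEF factors, which carry β-catenin to DNA, differed in sign and none passed 2-fold by its representative probe set. Tcf7l2 read 81.0 in Cpdm and 134 in wildtype, or 1.65-fold lower, and a second probe set gave a log2 ratio of -0.80. Another Tcf7l2 probe set was below the floor in Cpdm, at 17.2 against 38.2, or at least 2.07-fold lower. Tcf7l1, which acts mostly as a repressor, read 23.2 and 42.2, or 1.82-fold lower, and 13.2 against 33.0 by its other probe set. Lef1, itself a Wnt target, read 41.3 in Cpdm and 24.3 in wildtype, or 1.70-fold higher. Every measured probe set of Tcf7l1 and Tcf7l2 was therefore lower in Cpdm, while the single one of Lef1 was higher.

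Several probe sets of 1 gene give a second reading of the same arrays. Of 16 members with at least 2 probe sets measured on both arrays, 8 had the same sign by all of them and 8 had both signs. Of the 7 members at least 2-fold different, 5 had another measured probe set, and for 3 of these, Wnt4, Fzd5 and Nkd2, another probe set also passed 2-fold. Fzd8 and Lrp6 had another in the same direction below 2-fold, and Lgr4 and Wnt11 had none. Ctnnb1 and Tcf7l2 were the 2 members within 2-fold that had a further probe set past it.

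**Figure D2:**
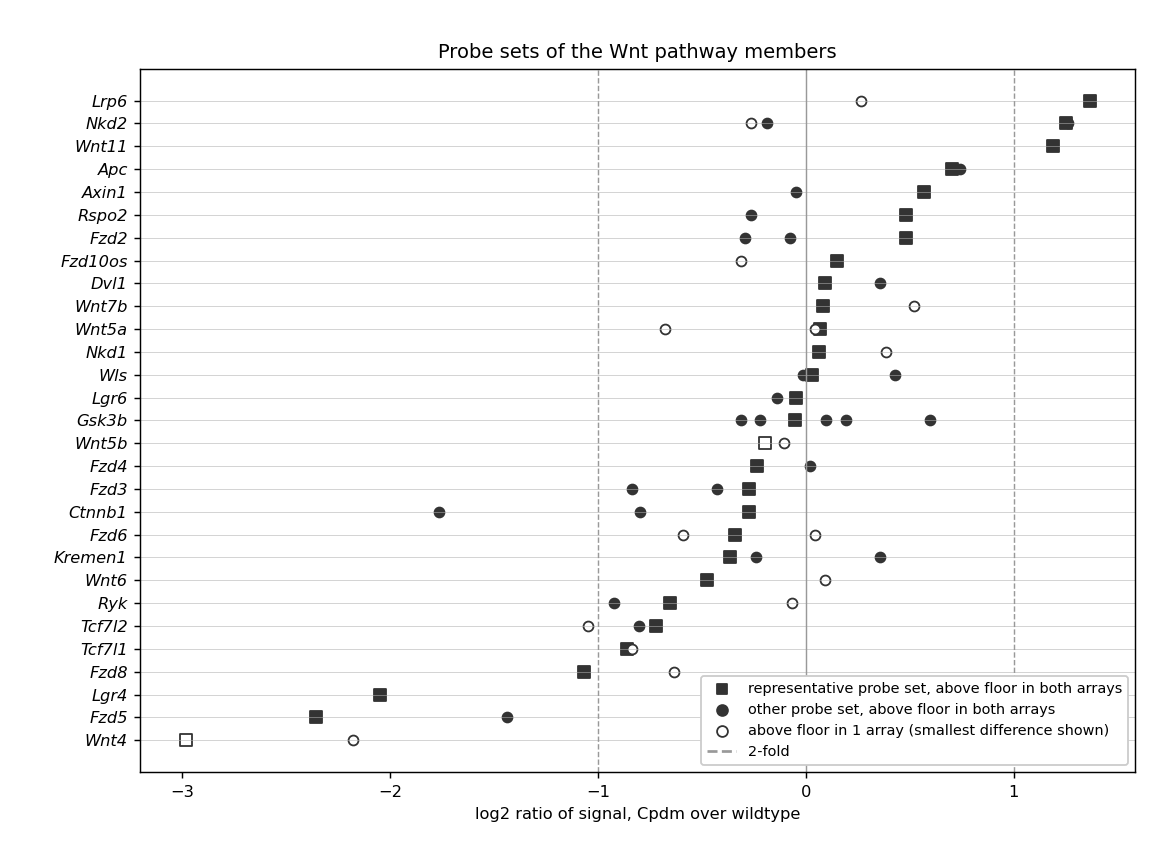
Log2 ratio of Cpdm over wildtype for each measured probe set of the members that have several or are at least 2-fold different, with the representative probe set as a square and open symbols where 1 array was below the floor, so that the point shows the smallest difference. Wnt4 and Fzd5 are beyond the dashed 2-fold line by all their points, Nkd2 by 2 of 4, and Ctnnb1 spans -1.77 to -0.27.

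The DNA upstream of 5 of the 7 members at least 2-fold different is shown, because these are the genes the comparison turns on and the 5 are those with a window in the sequence table. The core letters of TCF/LEF sites were looked for in them. Each line gives the 250 bases before the transcription start, 5′ to 3′ on the gene's strand, from RefSeq on build GRCm38.p6. The motif searched was CTTTGAT or, on the other strand, ATCAAAG, and capitals mark it.
Wnt4 (chr4:137277385-137277634, plus strand): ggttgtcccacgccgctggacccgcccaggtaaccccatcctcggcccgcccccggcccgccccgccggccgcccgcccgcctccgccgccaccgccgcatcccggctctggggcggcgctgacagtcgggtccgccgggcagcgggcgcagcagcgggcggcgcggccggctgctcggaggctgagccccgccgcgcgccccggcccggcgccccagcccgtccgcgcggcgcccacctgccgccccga
Fzd5 (chr1:64737751-64738000, minus strand): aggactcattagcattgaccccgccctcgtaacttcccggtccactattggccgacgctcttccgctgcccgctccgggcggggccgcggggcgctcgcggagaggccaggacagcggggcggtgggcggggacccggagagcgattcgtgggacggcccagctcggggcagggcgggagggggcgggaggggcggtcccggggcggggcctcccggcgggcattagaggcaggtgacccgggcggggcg
Lgr4 (chr2:109917397-109917646, plus strand): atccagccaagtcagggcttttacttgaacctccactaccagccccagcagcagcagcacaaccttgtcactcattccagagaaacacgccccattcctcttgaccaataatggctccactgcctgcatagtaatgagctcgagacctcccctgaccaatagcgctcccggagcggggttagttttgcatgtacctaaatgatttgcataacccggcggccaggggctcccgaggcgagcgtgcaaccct
Wnt11 (chr7:98834862-98835111, plus strand): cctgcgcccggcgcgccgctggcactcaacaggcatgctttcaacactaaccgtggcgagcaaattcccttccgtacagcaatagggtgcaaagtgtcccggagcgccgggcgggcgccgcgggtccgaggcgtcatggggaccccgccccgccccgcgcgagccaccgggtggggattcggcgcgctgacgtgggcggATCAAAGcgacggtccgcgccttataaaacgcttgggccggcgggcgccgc
Nkd2 (chr13:73847632-73847881, minus strand): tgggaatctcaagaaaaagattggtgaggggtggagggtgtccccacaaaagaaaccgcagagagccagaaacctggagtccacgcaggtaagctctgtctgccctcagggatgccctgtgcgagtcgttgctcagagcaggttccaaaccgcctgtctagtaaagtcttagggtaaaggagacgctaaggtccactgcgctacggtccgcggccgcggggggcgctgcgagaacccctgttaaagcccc

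The Wnt4 and Fzd5 stretches are rich in G and C, at 85.2% and 76.4% of bases, compared with 55.6% for Lgr4, 70.8% for Wnt11 and 58.4% for Nkd2. None of these but Wnt11 holds the core. In the Wnt11 stretch the core lies on the opposite strand and begins 51 bases before the start. The table gives Wnt11 a second start, whose window holds no core. Windows of 300 bases, from 250 before to 50 after the start, were given for 39 of the 57 members, some with several starts. Of these 47 windows 2 held the core, 1 of Wnt11 and 1 of Wnt5b, or 4.26%, against 3.73% of all 32851 windows. The median share of G and C was 67.7% in the member windows and 52.7% in all windows. The shares with the core thus come from sequence of unlike composition. A match is a description of letters and the arrays did not measure binding.

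The other genes of the pathway were described from 5 lists. The secreted antagonists act on Wnts or LRP co-receptors outside the cell. Of 12 measured antagonist genes 6 were at least 2-fold lower in Cpdm and 2 at least 2-fold higher, or 50.0% and 16.7% against 5.98% and 5.84% of all measured genes, with a median log2 ratio of -1.43. Wif1, a Wnt-binding inhibitor, read 11.9 in Cpdm and 364 in wildtype, at least 19.7-fold lower. Frzb and Sfrp2, both secreted Frizzled-related proteins, read 57.1 against 979.8 and 40.3 against 539.8. Sfrp2 was 13.4-fold and Frzb 17.2-fold lower. Whether the antagonists differ from the ligands and receptors could not be tested with 1 array per genotype.

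Genes of antagonists that act on LRP co-receptors went both ways. Dkk1, a Dickkopf protein that blocks LRP6, read 18.6 in Cpdm and 155 in wildtype, or 8.35-fold lower, with the Cpdm signal at the floor. Sost, the sclerostin gene of osteocytes, read 2.82 and 144, at least 7.81-fold lower. Dkk2, another Dickkopf gene, was near equal at 37.4 and 41.4. Igfbp4, whose protein also binds LRP6, read 2135 and 1264, or 1.69-fold higher, and 3 of its other 5 probe sets were more than 2-fold higher, at 2.20-fold, 2.13-fold and 2.08-fold. Among antagonists that act on the Wnt itself, Notum, the enzyme that removes the lipid from Wnts, read 22.7 and 121, or 5.34-fold lower. On the higher side were Sfrp4, at 1639 in Cpdm and 214 in wildtype, and Sfrp1, at 175 and 74.6. Another Sfrp1 probe set, measured on both arrays, went in the opposite direction, at 34.4 against 65.0, while its remaining 2 were above the floor in Cpdm only.

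Among 24 measured membrane and cytoplasmic regulators 2 were at least 2-fold lower and 1 at least 2-fold higher, with a median log2 ratio of 0.03. These are 8.33% and 4.17%, near the 5.98% and 5.84% of all measured genes. Lrp4, a receptor of sclerostin, read 57.0 in Cpdm and 185 in wildtype, or 3.24-fold lower. Cby1, a β-catenin inhibitor, was at least 2.54-fold lower. Apcdd1, a membrane-bound Wnt inhibitor, read 107 in Cpdm and 19.1 in wildtype, or 5.60-fold higher, with a wildtype signal near the floor. Its other 4 measured probe sets were also higher in Cpdm, by 1.67-fold where both arrays were above the floor. Of 20 measured nuclear cofactors none passed 2-fold in either direction, and the corepressor gene Tle4 came nearest at 1.98-fold higher, followed by the acetyltransferase gene Ep300 at 1.67-fold higher. The corepressor subunit gene Tbl1x was 1.47-fold lower, and 2.41-fold and 1.13-fold lower by its other probe sets. The factor gene Sox9, near the floor, was 1.43-fold higher by its representative probe set, while another one, above the floor in wildtype only, went the opposite way. Of the regulators within 2-fold, Dact1, a Dishevelled-binding protein, differed most, with a log2 ratio of -0.73.

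The polarity and calcium branch gave 2 of 27 measured genes at least 2-fold lower and 1 at least 2-fold higher, with a median log2 ratio of -0.04. These are 7.41% and 3.70%, near the 5.98% and 5.84% of all measured genes. Prickle1, a polarity protein, read 18.5 in Cpdm and 57.9 in wildtype, and Ankrd6, which binds Dishevelled and Axin, read 30.5 and 83.1. A further Ankrd6 probe set was at least 4.85-fold lower, and the third, above the floor in Cpdm only, read 26.1 against 18.7. Nfatc2, a calcium-responsive factor, was 2.88-fold higher by its representative probe set, but the other 2 that both arrays measured were lower, with log2 ratios of -0.47 and -0.57. The kinase gene Camk2b was above the floor in wildtype only, at 13.5 against 34.4, or at least 1.86-fold lower.

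Genes known as Wnt targets in one tissue or another went both ways. Of 24 measured target genes 6 were at least 2-fold lower and 3 at least 2-fold higher, or 25.0% and 12.5% against the same background of 5.98% and 5.84%, with a median log2 ratio of -0.41. Ccn4, a matricellular gene first found as Wnt-induced, read 414 in Cpdm and 1980.3 in wildtype, or 4.78-fold lower, and 8.98-fold lower by a second probe set. Smad6, an inhibitor of BMP signals, was 9.35-fold lower, Tnfrsf19 was 5.31-fold lower and the ligand gene Bmp4 was 3.15-fold lower. Snai2, a transcription factor of mesenchymal cells, was 2.57-fold lower, and Mmp7, a secreted protease, at least 2.81-fold lower.

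On the higher side were 3 targets. Tnfrsf11b, which encodes the osteoclast inhibitor osteoprotegerin, read 344 in Cpdm and 104 in wildtype, or 3.32-fold higher. Ccn2, a relative of Ccn4, was 2.38-fold higher, and the adhesion gene Nrcam was 2.04-fold higher, or 1.34-fold by another probe set. Of the 15 targets within 2-fold by their representative probe sets, some had a further probe set past it. The cell cycle gene Ccnd1 had log2 ratios of -0.38, -0.78 and -1.01 by its 3 probe sets. The gap junction gene Gja1 was at -0.75 and, by the most different of its other probe sets, at -3.83. Id2, an inhibitor of differentiation factors, was at -0.55 and -1.28. The growth gene Myc was near equal at 0.07. Msx1, Twist1 and Ppard were also lower, with log2 ratios of -0.58, -0.50 and -0.44, and Fosl1, Birc5 and Jun were higher, at 0.86, 0.81 and 0.61. Some genes that act back on the pathway, which were not a list of their own, were likewise split. Axin2, Lef1, Nkd2 and Apcdd1 were higher, and Notum and Dkk1 lower. Lgr5, at -0.27, and Nkd1, at 0.06, lay within the SD of 0.32 between probe sets of a gene. That SD holds no error between cultures or arrays, so a value beyond it is not thereby shown to differ. Of the membrane regulators, Znrf3 was at -0.47 and Rnf43 was below the floor in both arrays. Many of these genes are also controlled by other pathways, and their link to Wnt signalling in these cultures was not tested.

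**Figure D3:**
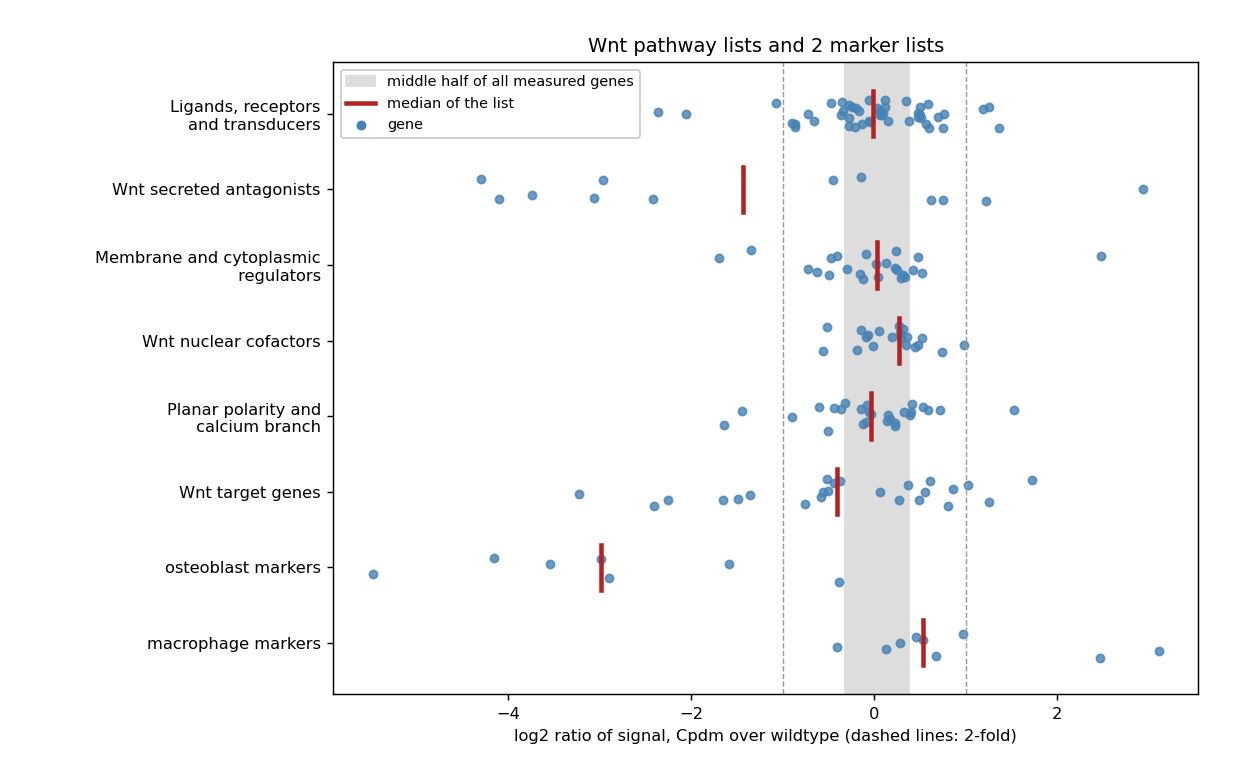
Log2 ratio of Cpdm over wildtype for each measured gene (points) of the members, 5 other Wnt pathway lists and 2 lists of cell type markers, with the list's median as a line and the range between the lower and upper quartile of all measured genes shaded. The members centre on -0.01, the secreted antagonists on -1.43 and the osteoblast markers on -2.98.

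The markers of the cells in these cultures moved with genotype as well. Of 7 measured osteoblast markers 6 were at least 2-fold lower in Cpdm, or 85.7% against 5.98% of all measured genes. The 7 had a median log2 ratio of -2.98 and a summed signal of 4910.2 in Cpdm and 14748 in wildtype. Of 9 macrophage markers 2 were at least 2-fold higher, or 22.2% against 5.84% of all measured genes, and none at least 2-fold lower. A log2 ratio above 0 was found for 8 of the 9, while Lyz2 was at -0.40. Their median was 0.54, with a summed signal of 15577 and 12123. Of 3 measured smooth muscle markers 2 were at least 2-fold higher, or 66.7% against 5.84% of all measured genes. The 4 genes of the list had a summed signal of 5900.5 and 2698. The gene of this list that was not measured, Myh11, was below the floor in both arrays. Marrow stroma markers summed to 2267 in Cpdm and 1300.1 in wildtype. Of these 6, 1 was at least 2-fold higher and 1 lower, or 16.7% each, against 5.84% and 5.98% of all measured genes.

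The labelled source, unsorted marrow cells in osteogenic culture, thus held signals of both osteoblasts and macrophages in both arrays. Alpl, the alkaline phosphatase of osteoblasts, read 129.9 in Cpdm and 1518 in wildtype, and the macrophage gene Cd68 read 3089 and 2545. No marker was at exactly 0. The endothelial genes Pecam1, Cdh5, Tek and Emcn, the osteoclast genes Calcr, Dcstamp and Ocstamp and the T and NK cell genes Cd3g and Nkg7 were below the floor in both arrays. Of the other lists, 1 endothelial, 3 osteoclast, 4 adipocyte, 4 neutrophil, 1 B cell and 2 T and NK cell markers were measured. The endothelial one, Kdr, read 75.7 in Cpdm and 97.9 in wildtype. The neutrophil gene Ltf was the only measured marker of these lists at least 2-fold different. Wnt4, Fzd5, Lgr4, Fzd8 and the 6 lower antagonists were at least 2-fold lower in Cpdm. So were 6 of 7 measured osteoblast markers, the marrow stroma marker Pdgfra and Ltf. Lrp6, Nkd2, Wnt11 and the antagonists Sfrp4 and Sfrp1 were at least 2-fold higher in Cpdm. So were 2 of 9 macrophage markers, 2 of 3 measured smooth muscle markers and the marrow stroma marker Cxcl12. With 1 array per genotype, all genes that differ do so between the same 2 arrays. A shared direction therefore does not link a gene to a cell type. The part of cell composition in these differences was not tested.

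The 7 members were followed through 9 other ways of processing the table. Wnt4, Fzd5 and Lgr4 stayed at least 2-fold lower in all 9, with log2 ratios from -3.00 to -1.77 for Wnt4, from -2.37 to -1.90 for Fzd5 and from -2.06 to -1.03 for Lgr4. Lrp6 stayed at least 2-fold higher in 8 of 9, Nkd2 and Wnt11 in 7 each, and Fzd8 at least 2-fold lower in 6. With the mean over probe sets the log2 ratio of Lrp6 was 0.81 and that of Nkd2 was 0.52. With a floor at the 60th percentile the log2 ratio of Wnt11 was 0.28 and that of Fzd8 was -0.35. The direction was kept by all 7 members in all 9. The floors, the offset and the small scalings could hardly reverse a 2-fold difference. Leaving out _s_at and _x_at probe sets left all 7 values unchanged. The kept direction therefore says little beyond the mean over probe sets.

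**Figure D4:**
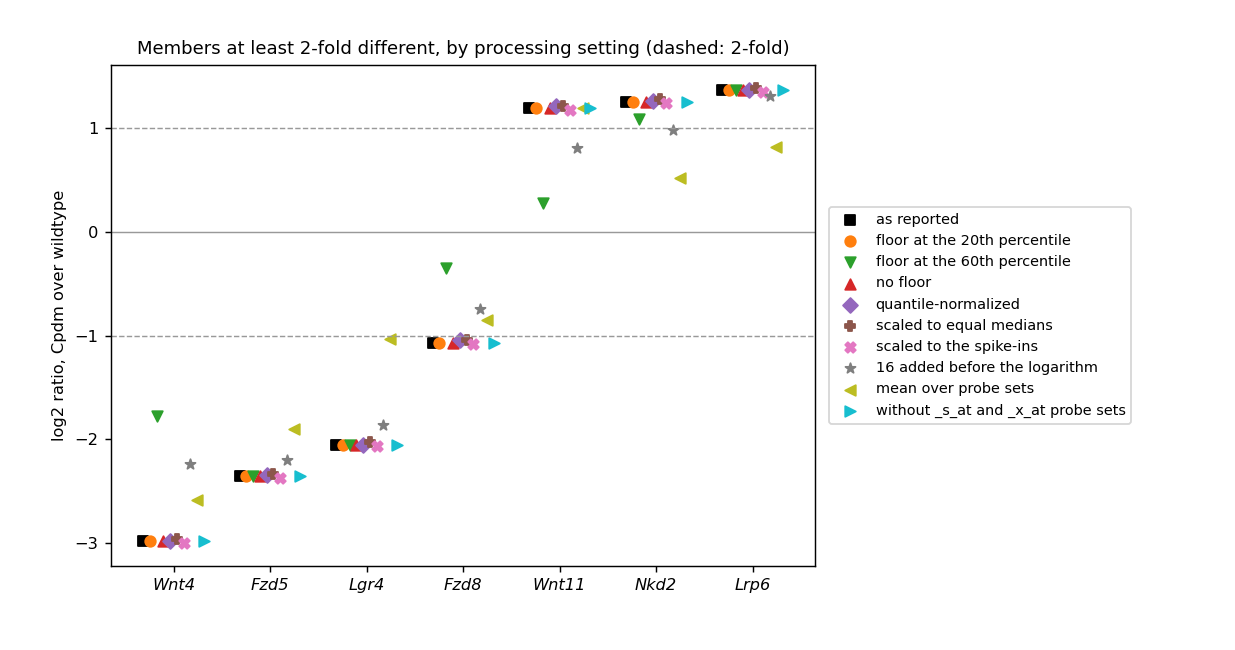
Log2 ratio of Cpdm over wildtype for the 7 members at least 2-fold different, as reported (black squares) and under 9 other processing settings, with dashed lines at 2-fold. Points of Wnt4, Fzd5 and Lgr4 stay beyond the line, while some points of Fzd8, Wnt11, Nkd2 and Lrp6 lie inside it.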

How the data were processed

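The authors deposited 1 table of MAS5 signal intensity values, linear and never negative, with 45101 probe sets and 1 column for each of 2 arrays. The submitters' processing notes name GCOS 1.4 and MAS5. Each labelling started from 5 µg of total RNA, per the labels' protocols, and used the Affymetrix in vitro transcription method. The table holds no detection calls or errors, and both columns have a mean of 100.0 after trimming 2% at each end. The scaling target, background settings and export software were not given in the sources used here.

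Of 45037 non-control probe sets 34945 carried 1 gene in the platform annotation, 932 carried several and 9160 were unlisted and stay unnamed; all 57 member symbols matched a current gene record. Log2 ratios of Cpdm over wildtype were computed without further scaling, with the floor and representative probe set described above, in Python 3.11.15 with numpy 2.4.6 and pandas 2.3.3. The steps were checked on simulated data, in which the changed genes had signals well above the floor. That check does not cover members near the floor. Probe sets ending in _s_at or _x_at can bind related transcripts. The number of arrays limits the precision, and no test between genotypes exists.

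The members and lists were chosen with earlier results of these data known. Every member is accounted for; from each other list, the rule named the 4 genes with the largest difference. The rest of the antagonist and target genes past 2-fold, and further genes within 2-fold (such as Igfbp4, Ccnd1, Gja1 and Id2) and the markers named, were added after their values were seen. The alternatives were 3 other floors, 3 scalings, an offset of 16 before the logarithm and 2 ways of choosing probe sets.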

Additional observations from a re-analysis of the deposited data

How the results depend on the processing

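The count of members at least 2-fold higher, 3 as reported, was 5 without a floor, 1 with 16 added before the logarithm and 1 with the mean over probe sets. The count at least 2-fold lower, 4 as reported, was 7 without a floor. The share of all measured genes moved too, from 5.84% higher and 5.98% lower to 9.57% and 10.4% without a floor, 3.91% and 4.09% with the offset, and 3.86% and 4.58% with the mean over probe sets. Ror2 and Wnt10b passed 2-fold with the floor at the 20th percentile and with none. Members added without a floor had signals that lay below it in at least 1 array; for the other counts the cause was not tested. Under the other alternatives both counts stayed within 1.5 times, and the median log2 ratio of the members stayed within the SD of the spike-in probe sets under all 9. The 3 other scalings left the same 7 members past 2-fold and moved the median of all genes by under 0.1. Over 48 members and 9 alternatives, 417 log2 ratios could be given. Of these, 392 moved by less than the SD between probe sets of a gene and 25 by more. No member at least 2-fold different changed sign, though the floors, the offset and the scalings could hardly have reversed such a difference. With 1 array per genotype no array could be left out and no paired analysis was possible because each genotype has a single sample. For 18 of the 48 measured members the lower of both signals was under 2 times the floor, which limits the size of a difference that can be measured.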
